A study of Mus musculus with 4 samples.

Results

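A list of cytotoxic granule and related genes was followed in regulatory T cells of the mouse intestine. It held the granzymes Gzma, Gzmb and Gzmk, the pore-forming perforin gene Prf1, and Nkg7, Cd7, Serpinb9, Srgn and Ctsw. Granule gene is used below as a name for members of the list, although Cd7 encodes a surface molecule and Serpinb9 an intracellular inhibitor. These 9 genes were chosen by symbol from the 24061 gene rows of a raw count table, with their levels already known in all 4 libraries. All 9 passed the filter on low counts that left 13022 genes to test. The cells were effector regulatory T cells sorted from Peyer's patches, lymphoid tissue in the wall of the small intestine; they carry CD4 and FoxP3. Of the 4 libraries, 2 were labelled Maf flox (Mafflox/floxFoxP3-YFP-cre) and 2 wild type (Maf+/+FoxP3-YFP-cre), and the question was which transcripts depend on the transcription factor c-Maf. All mice were 13 weeks old, on C57BL/6 at backcross generation 5, and housed without Helicobacter hepaticus, and all carried Foxp3-driven Cre with a yellow fluorescent tag, active in regulatory T cells. About 40000 cells went into each sample. Whether animals were pooled, and whether libraries of 1 label came from separate animals, is not stated in any source used here. P-values therefore reflect the spread of these libraries alone. Part of that spread may be technical, and within each label it also holds the difference in Maf given below.

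The targeted gene went against 2 of the labels. Maf had 15 counts in the library labelled flox 2 and 40 in the library labelled wt 2, against 2975 in the library labelled flox 1 and 3071 in the library labelled wt 1. The libraries with the title number 2 were thus low in Maf and those with the number 1 high, whichever genotype they were labelled with. Libraries are called below by label and number (flox 2, wt 2, flox 1, wt 1), no library was moved to another group, and 2 comparisons were made. The comparison by number, 2 over 1, is the one by which the genes were picked and is a description without a test. The comparison by label, flox over wt, was tested across all genes. Gene totals ranged from 19368745 to 24687897 counts.

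Granzymes are serine proteases that cytotoxic lymphocytes store in secretory granules on the proteoglycan serglycin, the product of Srgn, and release towards a target cell together with perforin, which lets them enter it. Granzyme A and granzyme K cleave after basic residues and granzyme B after aspartate. Nkg7 is a granule membrane protein needed for efficient degranulation, cathepsin W (Ctsw) is a cysteine protease of cytotoxic lymphocytes, Serpinb9 is an intracellular inhibitor of granzyme B, and Cd7 is a surface molecule of T and natural killer cells. Regulatory T cells can also make granzyme B, and mouse intraepithelial lymphocytes of the gut are rich in granzymes A and B.

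The upstream sequences of 3 genes are shown because they gave contrasting patterns by library: Gzma and Gzmb were lowest in 1 library, and Srgn was lower in both libraries numbered 2. Each run is the 250 bases before the RefSeq gene start (GRCm38.p6, the mm10 assembly), 5′ to 3′ on the strand of the gene, and capitals mark matches on either strand to the motif letters given after them. For Srgn the more upstream of 2 starts is shown, and its window held no match.
Gzma (chr13:113100982-113101231, minus strand): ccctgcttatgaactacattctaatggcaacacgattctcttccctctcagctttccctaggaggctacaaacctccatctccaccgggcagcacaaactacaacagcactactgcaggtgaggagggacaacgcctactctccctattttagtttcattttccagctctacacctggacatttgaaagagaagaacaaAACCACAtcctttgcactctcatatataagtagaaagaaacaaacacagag
Gzmb (chr14:56262335-56262584, minus strand): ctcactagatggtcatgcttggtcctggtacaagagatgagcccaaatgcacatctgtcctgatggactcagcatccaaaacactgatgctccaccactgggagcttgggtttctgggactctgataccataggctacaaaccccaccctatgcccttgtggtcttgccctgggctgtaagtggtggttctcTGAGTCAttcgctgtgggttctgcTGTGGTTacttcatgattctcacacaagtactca
Srgn (chr10:62527446-62527695, minus strand): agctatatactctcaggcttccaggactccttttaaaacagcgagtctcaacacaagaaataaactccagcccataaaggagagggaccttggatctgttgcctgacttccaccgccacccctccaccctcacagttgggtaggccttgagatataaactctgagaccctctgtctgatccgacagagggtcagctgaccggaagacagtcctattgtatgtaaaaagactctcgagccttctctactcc

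Upstream windows were found for 7 of the 9 genes, all but Cd7 and Ctsw. A RUNX motif (TGTGGTT) lay upstream of Gzma, of Gzmb and of the second Srgn start, and occurs in 4.40% of 32851 windows of this length. An AP-1 motif (TGAGTCA, 4.46% of windows) lay upstream of Gzmb, and a T-box motif (GGTGTGA, 3.33%) before the RefSeq starts of Gzmk and Nkg7. The letters of a MAF half-site (TGCTGAC, 3.81%) were in none of the 7 genes' windows. The RUNX and AP-1 matches of Gzmb did not overlap. A match is a description of the letters, not evidence that a factor binds there.

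The 3 granzyme genes of the list lie at 2 loci. Gzma (chromosome 13, 113093825 to 113100981, minus strand; mm10) and Gzmk (113171608 to 113225908, same strand) are 70.6 kb apart with 0 other protein-coding genes between them, and Gzmb lies on chromosome 14 (56258838 to 56262260, minus strand). The longest open reading frames of Gzma and Gzmk were identical at 63.5% of 731 aligned bases, and those of Gzmb and its closest neighbour Gzmc at 76.7% of 741. Gzmk overlaps Esm1 on the other strand and Cd7 an antisense gene, and Ctsw ends within the end of Fibp. These are overlaps of whole gene spans, and overlap of exons was not determined. The spans of Ctsw and Fibp share only positions 5465043 to 5465051. Esm1 (113209659 to 113218098) lies upstream of the RefSeq start window of Gzmk (113180966 to 113181215). Use of strand in counting is not stated, so whether any reads were shared within these pairs was not determined. Esm1 itself had 30 and 133 counts in flox 2 and wt 2, against 6 and 0 in flox 1 and wt 1.

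Levels were compared between genes as CPM (counts scaled to a common library size) per kilobase of exon, averaged over the 4 libraries. The length joined the exons of all annotated transcripts of a gene (2196 bases for Srgn, 1006 for Gzma), so it can exceed that of the transcript present. Srgn was highest at 450.0, followed by Gzmb at 240.0, Gzma at 224, Ctsw at 96.5, Nkg7 at 71.7, Cd7 at 63.3, Serpinb9 at 20, Prf1 at 4.81 and Gzmk at 0.579. By this mean the transcript of the granule scaffold was the most abundant, and in every library granzymes A and B were above perforin and granzyme K. The ranges over the libraries of Srgn (341 to 552) and Gzmb (128 to 318) did not meet, but that of Gzma (48.2 to 417) overlapped both. In wt 2 Gzma was above Srgn by this measure (417 against 341 CPM per kilobase). That order rests on the lengths used, as in CPM alone Gzma was below Srgn in wt 2 (419.5 against 748.4 CPM). From Gzmb down to Serpinb9 each gene's range overlapped that of the next, and the ranges of Serpinb9, Prf1 and Gzmk were again apart.

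Of the granzymes, Gzma and Gzmb were lowest in the library wt 1 and did not follow the number. Gzma had 210.3 CPM in flox 2 and 419.5 CPM in wt 2, against 221 CPM in flox 1 and 48.5 CPM in wt 1. Both flox libraries were alike, while the wt libraries held the highest and the lowest value, so that the groups overlapped by number and by label. Within flox, library 2 was 0.95 times library 1 (95% interval 0.912 to 0.988), and within wt 8.65 times (8.10 to 9.25). These intervals, like all those on ratios and counts here, are exact binomial or Poisson intervals and cover counting error only. The log2 ratio of mean CPM, number 2 over number 1, was 1.22 for Gzma over all 4 libraries and 0.51 without wt 1, 0.64 without wt 2, 1.64 without flox 2 and 2.70 without flox 1.

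Gzmb had 362 CPM in flox 2 and 375 CPM in wt 2, against 457 CPM in flox 1 and 184 CPM in wt 1. The 2 libraries numbered 2 lay between the 2 numbered 1. The ratio of library 2 over library 1 was 0.792 within flox (0.769 to 0.816) and 2.03 within wt (1.95 to 2.11), in opposite directions. Over all 4 libraries the log2 ratio by number was 0.20, and without wt 1 it was -0.31. The sum of the granzymes Gzma, Gzmb and Gzmk was 573 CPM in flox 2 and 795 CPM in wt 2, against 679 CPM in flox 1 and 234 CPM in wt 1.

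The third granzyme, Gzmk, was near the limit of detection. It had 15 and 23 counts in flox 2 and wt 2, against 7 and 22 in flox 1 and wt 1, or 0.726, 1.14, 0.287 and 1.07 CPM. The lowest was flox 1, and the groups overlapped by number. By label both flox libraries lay below both wt libraries, and the counting interval of flox 2 over wt 2 (0.638, 0.31 to 1.28) included 1, while that of flox 1 over wt 1 (0.268, 0.0967 to 0.65) did not. Gzmk was the 1 gene of the 9 whose libraries did not overlap by label, with 0 in the other direction, where 13.8% of the genes tested lay lower in both flox libraries and 13.2% higher.

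Perforin was low and nearly level. Prf1 had 11.4 CPM in flox 2 and 16.4 CPM in wt 2, against 11.3 CPM in flox 1 and 10.7 CPM in wt 1. Only wt 2 stood above the others, and although both libraries numbered 2 ranked above both numbered 1, flox 2 and flox 1 differed by less than counting error (ratio 1.01, 0.848 to 1.21). Within wt the ratio was 1.53 (1.29 to 1.82).

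**Figure D1:**
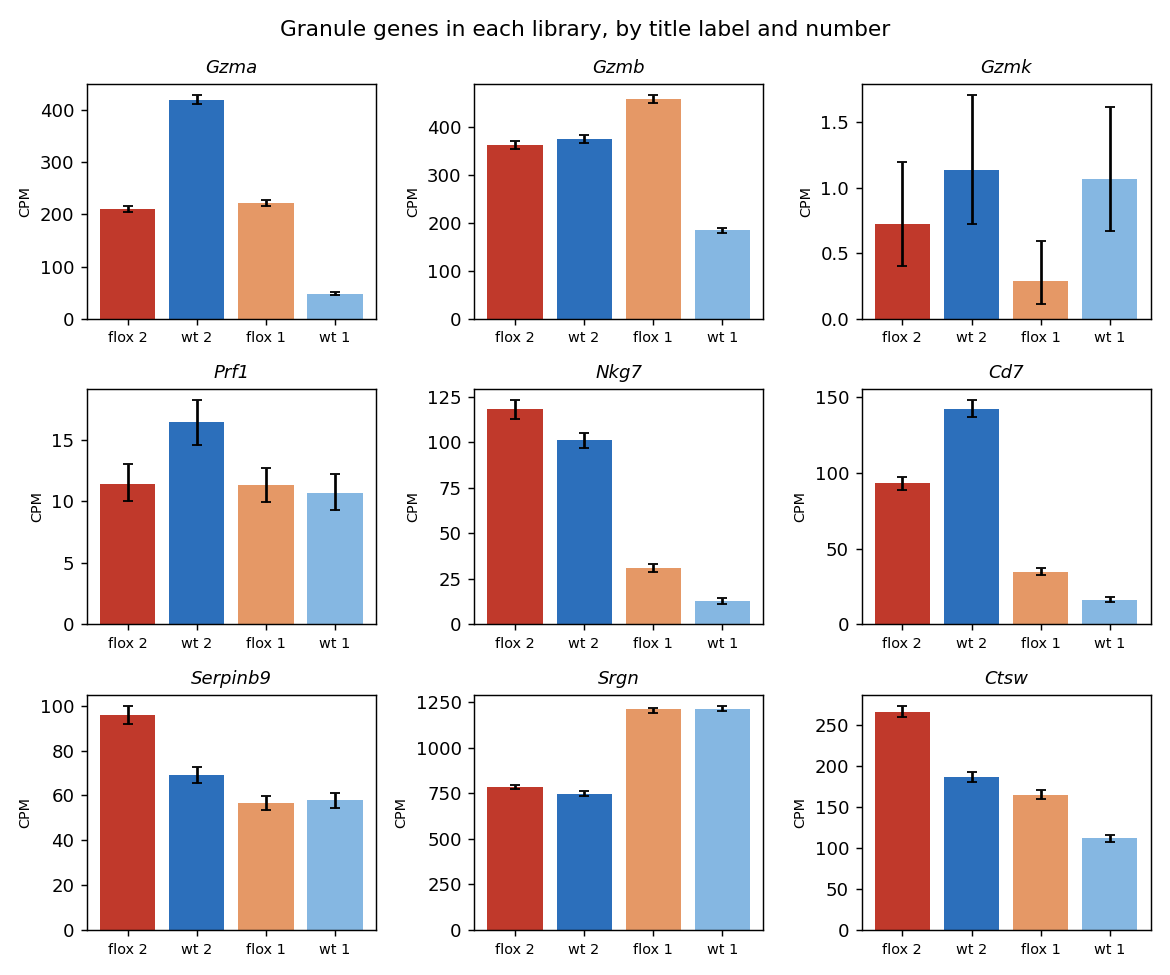
CPM (bars, from 0) of the 9 genes in the libraries flox 2, wt 2, flox 1 and wt 1, each panel with its own axis; error bars are 95% Poisson intervals of the count. Nkg7 and Cd7 are high in both libraries numbered 2, Srgn is low in them, and Gzma and Gzmb are lowest in wt 1.

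Nkg7 and Cd7 had the largest differences by number of the 9 genes and had them in both labels. Nkg7 had 118 CPM in flox 2 and 101 CPM in wt 2, against 31.0 CPM in flox 1 and 12.7 CPM in wt 1. Mean CPM was 109 ± 11.99 in the libraries numbered 2 and 21.8 ± 12.9 in those numbered 1 (SD, n = 2 each), a ratio of 5.01. Both low-Maf libraries lay far above both high-Maf ones, and the ratio was 3.81 within flox (3.51 to 4.13) and 7.95 within wt (6.99 to 9.08).

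Cd7 had 93.1 CPM in flox 2 and 142 CPM in wt 2, against 34.8 CPM in flox 1 and 16.3 CPM in wt 1. Means were 118 ± 34.9 CPM in the libraries numbered 2 and 25.5 ± 13.1 CPM in those numbered 1 (SD, n = 2 each), a ratio of 4.61. The groups did not overlap, and within flox the ratio was 2.68 (2.47 to 2.91) against 8.74 within wt (7.80 to 9.82). For both genes the intervals of the 2 labels did not meet, the ratio being larger within wt. The lower of the libraries numbered 1 was wt 1, and flox 1 over wt 1 was 2.44 for Nkg7 (2.12 to 2.82) and 2.14 for Cd7 (1.88 to 2.43). Without wt 1 the log2 ratio by number was still 1.82 for Nkg7, against 2.33 with it, and 1.76 for Cd7, against 2.21.

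The protease Ctsw and the inhibitor Serpinb9 were moderately higher in the libraries numbered 2. Ctsw had 266 CPM in flox 2 and 186 CPM in wt 2, against 164 CPM in flox 1 and 112 CPM in wt 1. Its ratio was close to equal in both labels, 1.62 within flox (1.55 to 1.69) and 1.66 within wt (1.58 to 1.75), and flox over wt was 1.43 within number 2 (1.37 to 1.49) and 1.47 within number 1 (1.40 to 1.55). For Serpinb9 the values were 96.1 CPM in flox 2 and 69.1 CPM in wt 2, against 56.6 CPM in flox 1 and 57.8 CPM in wt 1. Here the libraries numbered 1 were level and flox 2 was highest, and the ratio was 1.70 within flox (1.58 to 1.82) and 1.20 within wt (1.11 to 1.29).

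Srgn was the 1 gene of the 9 that was lower in the libraries numbered 2. It had 783 CPM in flox 2 and 748 CPM in wt 2, against 1208 CPM in flox 1 and 1213 CPM in wt 1. The spread within a number was small, with means of 766 ± 24.6 CPM in the libraries numbered 2 and 1211 ± 3.67 CPM in those numbered 1 (SD, n = 2 each). The ratio was 0.648 within flox (0.636 to 0.661) and 0.617 within wt (0.605 to 0.63). Srgn made up 40.4% and 36.4% of the 9 genes' summed CPM in flox 2 and wt 2, against 55.3% and 73.2% in flox 1 and wt 1.

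**Figure D2:**
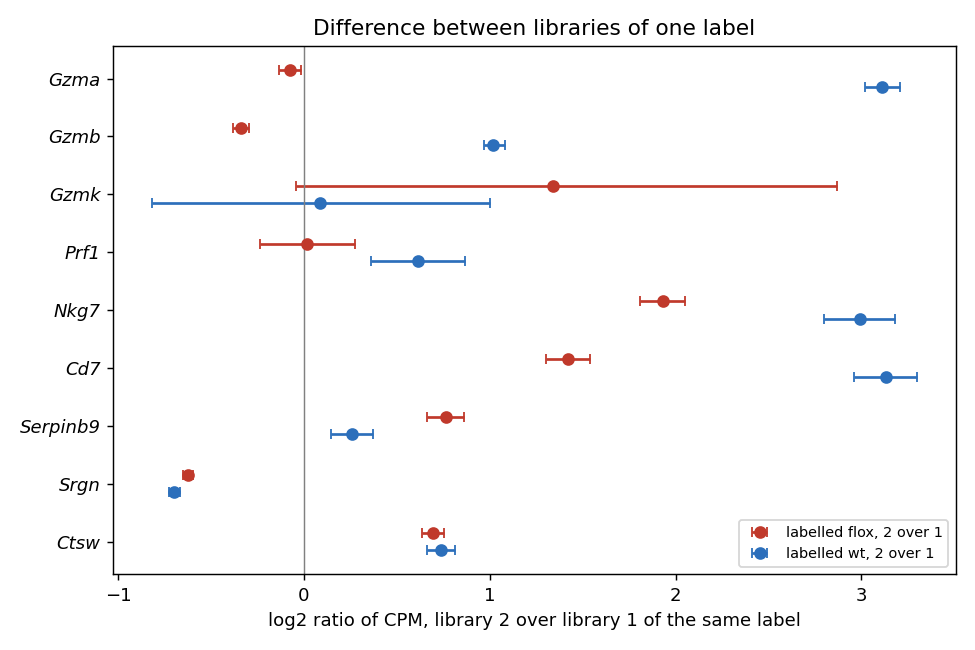
The log2 ratio of CPM in library 2 over library 1, computed within labelled flox (red) and within labelled wt (blue), for the 9 genes; bars are exact 95% intervals for counting error. Srgn and Ctsw have nearly equal ratios in both labels, and Gzma and Gzmb have ratios of opposite sign.

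By number, 5 of the 9 genes (Prf1, Nkg7, Cd7, Serpinb9 and Ctsw) were higher in both libraries numbered 2 and 1 (Srgn) was lower, while 22.7% and 22.5% of all genes tested were. Without scaling beyond library totals the counts over the 9 genes were again 5 and 1, and the shares of all genes 29.4% and 17.3%. A ratio of at least 2 was found for 3 of the 9 genes (Gzma, Nkg7 and Cd7) and for 2.91% of the genes tested. The median log2 ratio was 0.53 over the 9 genes and 0.00915 over all genes tested. Because the genes were picked on these values, the counts describe the list and are not a test of it.

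**Figure D3:**
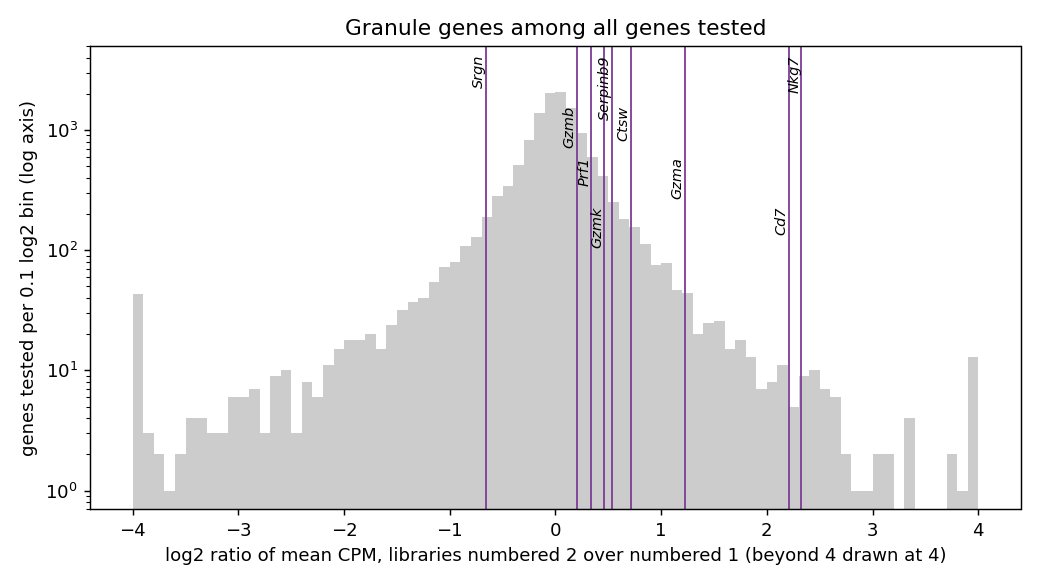
Histogram of the log2 ratio of mean CPM, libraries numbered 2 over numbered 1, over the genes tested (vertical axis logarithmic), with purple lines at the 9 granule genes. Nkg7 (2.33) and Cd7 (2.21) lie in the upper tail, Gzma (1.22) below them, and Srgn (-0.66) is the gene on the negative side.

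By label 0 of the 9 genes passed edgeR's quasi-likelihood test across all genes (adjusted p under 0.05), while 1 of the 13022 genes tested did (0.00768%), which was not a granule gene. Of the 9, 0 had an unadjusted p under 0.05, and DESeq2 called 0 of them. The log2 fold change of flox over wt was -0.12 for Gzma (SE 1.08), 0.55 for Gzmb (SE 0.37), 0.53 for Ctsw (SE 0.35), 0.39 for Nkg7 (SE 1.25) and -0.31 for Cd7 (SE 1.20), each with an adjusted p = 1. For the remaining genes it was 0.27 for Serpinb9 (SE 0.28), 0.02 for Srgn (SE 0.32), -0.25 for Prf1 (SE 0.27) and -1.13 for Gzmk (SE 0.74), again with an adjusted p = 1. The standard error exceeded the difference for Gzma, Nkg7, Cd7, Serpinb9, Srgn and Prf1. Within each label the 2 libraries differed in Maf. Leaving out 1 library turned the direction for Gzma, Nkg7, Cd7, Serpinb9, Srgn and Prf1, with values given in the closing part.

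Known epithelial genes were among the transcripts most like Gzma and Gzmb across the libraries. The profile of a gene over the 4 libraries was taken as its log2 CPM centred on its mean, and likeness as the root mean square difference of profiles, over 8721 other genes with at least 10 CPM on average. The 5 genes nearest to Gzma were Naaladl1, Cdh17, Npc1l1, Ceacam1 and Misp (root mean square difference 0.244 to 0.461). Cdh17 encodes an intestinal cadherin and Npc1l1 the cholesterol carrier of enterocytes, and Naaladl1, the nearest, had 20.9 and 55.0 CPM in flox 2 and wt 2, against 23.4 and 7.34 CPM in flox 1 and wt 1. Naaladl1, Npc1l1 and Ceacam1 were highest in wt 2, as Gzma was. Cdh17 was instead highest in flox 1 (41.5 CPM, against 36.2 CPM in wt 2). Misp was nearly level outside wt 1 (12.3 to 13.7 CPM, against 2.72 CPM in wt 1). Nearest to Gzmb were Hnf4g, Lima1, Ccl25, Smim24 and Muc13 (0.0682 to 0.116). Hnf4g is a nuclear receptor of gut epithelium, Ccl25 a chemokine of the small intestine and Muc13 a membrane mucin. Hnf4g had 11.2 and 12.5 CPM in flox 2 and wt 2, against 16.2 and 6.08 CPM in flox 1 and wt 1. Each profile rests on only 4 libraries, and the share of epithelial genes among all 8721 was not determined, so these neighbours are a description.

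The summed epithelial and myeloid markers were also lowest in wt 1, as were those of several other lists. The natural killer sum was 27.2 CPM in wt 1 and 28.9 CPM in flox 1, the next lowest. The intraepithelial T cell sum was 606 CPM in wt 1 and 909 CPM in flox 1. B and plasma cell and heat shock sums were lowest in wt 1 by a small margin. Sums of CD8 T cell, innate lymphoid, mast cell, regulatory and naive T cell markers were not lowest there. Epithelial markers (8 of 8 detected in every library) summed to 238 and 331 CPM in flox 2 and wt 2, against 346 and 144 CPM in flox 1 and wt 1. Epcam and Krt8 were the most abundant. Krt18 was instead lowest in flox 2 (3.82 CPM, against 7.49 CPM in wt 1). Myeloid markers (7 in the table) summed to 55.6 and 61.7 CPM in flox 2 and wt 2, against 99.9 and 11.2 CPM in flox 1 and wt 1, led by Lyz2. In wt 1, C1qc had 0.438 CPM and Csf1r, picked on its values, 0 counts. Cd68 and Itgax were instead lowest in flox 2 (1.21 and 0.145 CPM, against 2.19 and 0.340 CPM in wt 1). B and plasma cell markers (7 in the table, led by Cd79b and H2-Eb1) summed to 60.7 and 75.0 CPM in flox 2 and wt 2, against 121 and 57.7 CPM in flox 1 and wt 1, with flox 2 and wt 1 nearly level and 5 of the 7 genes not lowest in wt 1. Wt 1 was the lowest library for 6 of the 9 granule genes, where 24.5% of all genes tested had their lowest value in it. The part of other cells in the granzyme values was not tested, and in bulk RNA fewer cells of a type cannot be told apart from less RNA per cell.

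Of the markers of cytotoxic lymphocytes, several natural killer genes were absent or near 0, while Klrb1c and Cd160 were present. The CD8 T cell genes Cd8b1 and Cd8a summed to 21.3 and 22.3 CPM in flox 2 and wt 2, against 27.6 and 21.3 CPM in flox 1 and wt 1, a range that did not set wt 1 apart. Of 11 natural killer cell markers, Klra1 and Klre1 had 0 counts in every library, Ncr1 and Klrc1 at most 3, and Eomes, a T-box factor, at most 0.860 CPM. The natural killer list summed to 87.2 and 54.5 CPM in flox 2 and wt 2, against 28.9 and 27.2 CPM in flox 1 and wt 1, and was made up mostly of Klrb1c (68.5 and 44.9 CPM against 21.3 and 22.6 CPM) and the chemokine Xcl1 (12.5 and 4.05 CPM against 1.15 and 1.61 CPM). Both were higher in both libraries numbered 2, where 22.7% of all genes tested were. The other 4 of the 6 natural killer markers tested overlapped by number, and Tyrobp and Klrd1 were lower on average in the libraries numbered 2. On the list of intraepithelial T cells, Itgae, the integrin that binds epithelial cadherin, had 1561 and 1359 CPM in flox 2 and wt 2, against 860.0 and 568 CPM in flox 1 and wt 1. Cd160 had 78.9 and 72.3 CPM against 47.0 and 37.4 CPM. Cd244 overlapped by number, at 1.84 CPM or less. Which cells carried these transcripts was not determined. The gamma delta T cell receptor genes Trdc, Tcrg-C1 and Tcrg-C2 were listed too, but no gene row carried these symbols. The mast cell proteases Mcpt1, Mcpt2, Mcpt4 and Tpsb2 had 0 counts in every library, and Ms4a2 and Cpa3 at most 15 and 7.

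**Figure D4:**
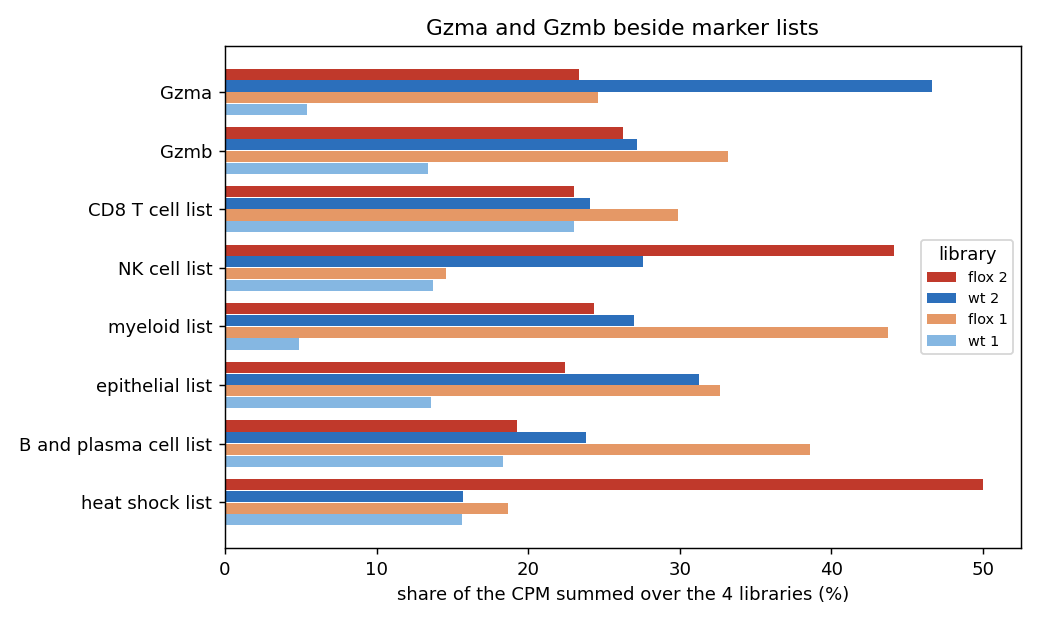
Share of the CPM summed over the 4 libraries that each library held (%), for Gzma, Gzmb and the summed marker lists, with bars for flox 2, wt 2, flox 1 and wt 1 from top to bottom. Wt 1 holds 5.39% for Gzma, 13.4% for Gzmb, 13.6% for the epithelial list and 4.92% for the myeloid list, and 23.0% for the CD8 T cell list. It also holds the smallest share of the natural killer (13.7%), B and plasma cell (18.3%) and heat shock (15.6%) lists.

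Foxp3, the defining factor of regulatory T cells, was present at 104 CPM in flox 2 and in wt 2, against 91.0 CPM in flox 1 and 93.8 CPM in wt 1, and Cd4 at 919.6 to 997.6 CPM. Ctla4, an inhibitory receptor of these cells, had 2080 and 1627 CPM in flox 2 and wt 2, against 3344 and 3342 CPM in flox 1 and wt 1. Among markers of naive T cells, Ccr7, a homing receptor, had 1211 and 708 CPM in flox 2 and wt 2, against 1053 and 1275 CPM in flox 1 and wt 1. Heat shock genes set flox 2 apart, with a sum of 9346 CPM, against 2943 CPM in wt 2, 3495 CPM in flox 1 and 2920 CPM in wt 1. Hspa8 and Hsp90aa1 were the most abundant on average, and Hspa1b, picked on its values, had 1594 CPM in flox 2 and 199 CPM in wt 2, against 151 CPM in flox 1 and 71.2 CPM in wt 1. Serpinb9, Ctsw and Nkg7 were also highest in flox 2. Without that library the log2 ratio by number was 0.27 for Serpinb9, 0.43 for Ctsw and 2.21 for Nkg7, against 0.53, 0.71 and 2.33 with it.

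Other genes of the granule pathway were taken from lists that cover the remaining granzymes, processing enzymes, serpins, transport and release, death ligands, and regulators. By label 0 of their tested members passed the quasi-likelihood test, and 1 of them, the regulator Tbx21, had an unadjusted p under 0.05, as did 258 of the 13022 genes tested. The values by number that follow are descriptions, and their counts stand beside 22.7% of all genes tested that were higher in both libraries numbered 2 and 22.5% that were lower. Of 7 other granule proteases, Gzme and Gzmn had 0 counts in every library, Gzmd, Gzmf and Gzmg at most 2, and Gzmc at most 14, while Gzmm had 19 and 32 counts in flox 2 and wt 2, against 10 and 25 in flox 1 and wt 1. Gzma and Gzmb thus held almost all granzyme counts of these libraries.

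Among 9 genes of granule protease processing, 3 were higher in both libraries numbered 2 and 5 lower (22.7% and 22.5% of all genes). The most abundant were the lysosomal cathepsins Ctsb and Ctsd and Ctsc, which encodes the dipeptidyl peptidase that activates granzymes. Ctsc had 207 and 222 CPM in flox 2 and wt 2, against 181 and 183 CPM in flox 1 and wt 1, a small difference beside that of Nkg7. Ctsb had 801 and 834 CPM against 1118 and 1265 CPM, and Ctsd 379 and 380.2 CPM against 349 and 341 CPM. Cst7, which encodes cystatin F, an inhibitor of cathepsin C, had 191 and 163 CPM in flox 2 and wt 2, against 84.7 and 84.2 CPM in flox 1 and wt 1. Legumain (Lgmn), a protease that can activate cathepsins, had 3.72 and 5.29 CPM in flox 2 and wt 2, against 44.3 and 42.7 CPM in flox 1 and wt 1, and Ctsl had 7.79 and 8.60 CPM against 34.3 and 31.3 CPM. Cst7, Lgmn and Ctsl were singled out after their values were seen.

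Of 6 serpins tested, 1 was higher in both libraries numbered 2 and 1 lower, near the shares of all genes (22.7% and 22.5%). Serpinb6b had 73.5 and 71.5 CPM in flox 2 and wt 2, against 50.4 and 51.5 CPM in flox 1 and wt 1, and Serpina3g was highest in flox 2 (248 CPM in flox 2 and 138 CPM in wt 2, against 152 CPM in each library numbered 1). Serpinb6a, the lower one, had 27.7 and 42.0 CPM in flox 2 and wt 2, against 48.2 and 45.8 CPM in flox 1 and wt 1. Serpinb9b, the nearest named relative of Serpinb9 in the list, had 0 and 0 counts against 5 and 2.

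In the machinery of granule transport and release 3 of 17 tested genes were higher in both libraries numbered 2 and 5 lower, near the shares of all genes (22.7% and 22.5%), with a median log2 ratio by number of 0.03. Lamp1, a lysosomal membrane protein, had 435 and 477 CPM in flox 2 and wt 2, against 519 and 533 CPM in flox 1 and wt 1. M6pr, the mannose phosphate receptor that carries granzymes to granules, had 432 and 390.1 CPM against 395 and 420.4 CPM. Stx11, a syntaxin needed for granule fusion in cytotoxic cells, stood apart from these with 260 and 205 CPM in flox 2 and wt 2, against 484 and 456 CPM in flox 1 and wt 1.

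Of 7 death ligands and receptors, 4 were higher in both libraries numbered 2 and 3 lower (22.7% and 22.5% of all genes). Fasl, which encodes the ligand of the death receptor Fas, had 85.9 and 57.1 CPM in flox 2 and wt 2, against 32.9 and 26.2 CPM in flox 1 and wt 1. Tnfsf10, which encodes TRAIL, had 71.4 and 74.9 CPM against 41.3 and 48.4 CPM, and Ltb, the most abundant of the list, had 814 and 671 CPM against 576 and 616 CPM. The receptors Fas (50.7 and 41.6 CPM against 61.4 and 58.4 CPM) and Tnfrsf10b were lower in both libraries numbered 2, as was Tnf. Fasl and Tnfrsf10b were singled out after their values were seen.

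Of 16 regulators of granzyme genes, 3 were higher and 10 lower in both libraries numbered 2 (22.7% and 22.5% of all genes). The most abundant were Il2rb, a chain of the interleukin 2 receptor, at 1359 and 1294 CPM in flox 2 and wt 2 against 1235 and 1267 CPM in flox 1 and wt 1, Tcf7 at 461 and 625 CPM against 709 and 841 CPM, and Stat5b at 456 and 420.1 CPM against 494 and 505 CPM. Runx3, a factor of cytotoxic T cells, had 132 and 100.2 CPM in flox 2 and wt 2, against 72.0 and 82.2 CPM in flox 1 and wt 1. Tbx21, which encodes T-bet, had 22.2 and 15.8 CPM against 19.6 and 14.7 CPM and so followed the label more than the number, without passing over all genes (log2 fold change of flox over wt 0.45, SE 0.18, edgeR quasi-likelihood adjusted p = 1). Zeb2, a factor of terminally differentiated killer cells, had 1 and 7 counts in flox 2 and wt 2, against 122 and 102 in flox 1 and wt 1. Runx3 and Zeb2 were singled out after their values were seen.

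**Figure D5:**
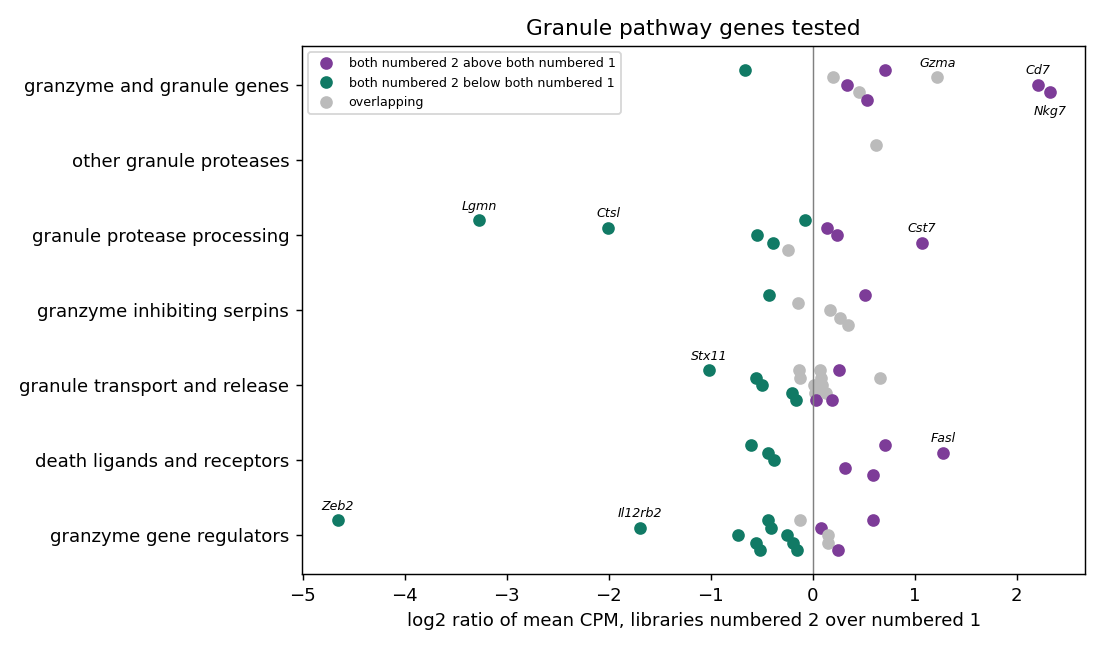
The log2 ratio of mean CPM, libraries numbered 2 over numbered 1, for each tested gene of the 7 lists; purple points are genes higher in both libraries numbered 2, green points genes lower in both, and grey points genes that overlap, with a small vertical offset for legibility. Names mark genes with a ratio of at least 1 in size, among them Nkg7, Cd7, Fasl and Cst7 on the higher side and Zeb2, Lgmn and Ctsl on the lower.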

How the data were processed

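Messenger RNA of sorted Peyer's patch effector regulatory T cells was sequenced in 4 libraries, prepared with an ultra-low input kit per the labels' protocols. The submitters' processing notes list build mm10, HTSeq 0.6.1, edgeR 3.14 and TopHat2 2.1.1, without annotation, settings or strand. The authors deposited raw counts per gene symbol (24061 gene rows; 5 summary rows holding 66.6% to 67.2% of column totals were left out) and, as normalized signal on a scale no source explains, a filtered table of 10618 rows. This signal table, as deposited by the authors, served as an alternative only. It holds 8 of the 9 genes, without Gzmk.

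The test was run on counts with edgeR 4.0.16 under R 4.3.3 (filterByExpr, TMM, robust glmQLFit, glmQLFTest, Benjamini-Hochberg over 13022 genes, threshold 0.05), labelled flox against labelled wt, 2 libraries each. CPM uses TMM library sizes; a floor of 3 counts is 0.123 to 0.148 CPM. With 2 against 2, no exact permutation test of 1 gene can reach 0.05, so none was run. Libraries numbered 2 and 1 in their titles were compared without a test. The fit was tested on simulated data. A separate replicate field, 1 for wt and 2 for flox, was not used.

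Members and lists were chosen with earlier results of these data known. Named were all 9 genes, the 3 most abundant of each pathway list, the 2 most abundant of each marker list, and the 5 nearest profiles of Gzma and Gzmb. The innate lymphoid list is given in the closing part. Positions are from GENCODE M21 (mm10) and upstream sequences from RefSeq (GRCm38.p6). Other settings tried were a block on the title number, DESeq2 1.42.0, each library omitted in turn, and different scalings or filters. In 27 rows the symbol had become a date; these were tested and not named. Of the marker lists, 1 gene is not reported here.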

Additional observations from a re-analysis of the deposited data

Results flagged for a closer look

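For 2 genes the difference between libraries 2 and 1 ran in opposite directions within labelled flox and within labelled wt. For Gzma the log2 ratio of library 2 over library 1 was -0.07 within flox and 3.11 within wt, a difference of flox minus wt of -3.18. For Gzmb it was -0.34 within flox and 1.02 within wt, a difference of -1.36. With 1 library behind each value the difference was not tested. The library wt 1, in which both genes were lowest, also had the lowest summed epithelial and myeloid markers. The intraepithelial T cell sum was lowest in it too, and the natural killer, B and plasma cell and heat shock sums were so by a small margin. Sums of CD8 T cell, innate lymphoid, mast cell, regulatory and naive T cell markers were not lowest in wt 1. The part of other cells in the granzyme values was not tested.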

How the results depend on the processing

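Gene calls by label were 1 in 13022 as reported, 12 by DESeq2, 2 with every gene of at least 1 count, 1 with a replicate block (the title number as a term), and 0 to 0 with each library omitted in turn, when the lone library of a label is assumed to vary like the others. Calls among the 9 granule genes were 0 under every setting run, with a smallest adjusted p of 0.566. The block turned the fold change of Gzma to 0.57 and of Cd7 to 0.18, both with adjusted p = 1 by edgeR. Its numbers are not stated to pair animals, and they follow the Maf level, so the block also takes up that difference. Deviations of same-numbered libraries correlated at 0.363 across genes, which are not replicates. As number and Maf level split the libraries alike, this value cannot show whether the numbers pair animals. Over the libraries left out, the log2 fold change of flox over wt ran from -0.959 to 2.16 for Gzma (positive without wt 2), -0.875 to 2.56 for Nkg7 (negative without flox 2 or wt 1), -1.19 to 1.98 for Cd7 (positive without flox 1 or wt 2), -0.164 to 0.60 for Serpinb9 (negative without flox 2), -0.323 to 0.411 for Srgn (negative without flox 1 or wt 2) and -0.53 to 0.0895 for Prf1 (positive without wt 2). By number, the median over the 9 genes was 0.58 without scaling and 0.62 in the authors' deposited normalized values (8 genes), and 0.508 to 0.999 over the libraries left out. The count of genes higher in both libraries numbered 2 was 5 to 7 and of those lower 1 to 2, the second being Gzmb without wt 1, where 34.7% to 38.6% of all genes were higher and 34.3% to 37.6% lower. Without scaling, which moves the median of all genes to 0.0647, the ratio of library 2 over 1 within wt was 9.29 for Gzma and 2.18 for Gzmb. The cause of these changes was not tested. Gzmk, at 7 to 23 counts, is limited by depth.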

Other observations

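Among the markers of innate lymphoid cells, Areg, a growth factor, had 310 and 259 CPM in flox 2 and wt 2, against 440.1 and 319 CPM in flox 1 and wt 1, and Rora, a nuclear receptor, had 204 and 237 CPM against 272 and 202 CPM. Regulatory T cells can express both. Kit, the receptor of stem cell factor, was picked here on its values, which were 13.1 CPM in flox 2 and 109 CPM in wt 2, against 26.7 and 14.9 CPM in flox 1 and wt 1. It was highest in wt 2, as Gzma was.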
